A study of Mus musculus with 25 samples.

Results

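Wnt ligands, their Frizzled receptors and the secreted antagonists Sfrp and Dkk were followed in mouse liver progenitor cells carrying oncogenic Ras and in the tumours that such cells form. Within these families the genes were taken by name: every gene of the count table whose symbol is Wnt, Fzd, Sfrp or Dkk with a number, and a or b where present. They were 37 of 24984 genes, namely 19 Wnt, 10 Fzd, 4 Sfrp and 4 Dkk genes. The families themselves were chosen with earlier results of these data known. Wnt proteins are secreted lipid-modified ligands that bind Frizzled receptors together with Lrp co-receptors. Binding either stabilises beta-catenin, which then acts with TCF factors on target genes such as Axin2, or feeds branches that work without beta-catenin, such as planar cell polarity. Sfrp proteins resemble the ligand-binding part of Frizzled and can hold Wnt outside the cell, and Dkk proteins bind the Lrp co-receptors. In the liver, Wnt released by endothelial cells around the central veins maintains the pericentral zone of hepatocytes.

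Bulk RNA sequencing gave 25 libraries in 7 groups. Cultured BMEL cells (bipotential mouse embryonic liver cells, a clonally derived line from a C57BL/6 and C3H cross) formed 3 groups of 3 libraries: BMEL WT with an empty vector, and RasLOW and RasHIGH, populations transduced with human H-Ras G12V and a fluorescent protein and sorted for low or high fluorescence. All 3 were growing exponentially on collagen-coated plates with serum, insulin, IGFII and EGF. From 4 athymic nude mice, a host without mature T cells, a liver tumour and a peritoneal tumour were taken after BMEL-Ras cells had been injected into the liver, and each was sorted into GFP-positive tumour cells and GFP-negative stromal cells, giving 4 groups of 4 libraries with 1 library from each mouse. The labels do not say which Ras population gave rise to these tumours, and no age is given for the mice. The cultured lines share 1 parental clone, and their replicates are labelled only as replicates, so their p-values measure the spread between these samples, which may be technical.

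Library totals ran from 20818989 to 51241336 counts, so that 3 counts, taken as the detection floor, corresponded to between 0.0576 and 0.141 CPM (counts scaled to a library of 1000000). No pair of libraries held identical counts. Mouse Hras, the cell's own gene, lay between 71.3 and 87.2 CPM in BMEL WT, between 47.1 and 102 in RasLOW and between 50.6 and 80.0 in RasHIGH, so it does not separate the lines and is no readout of the human transgene. Krt8, a keratin of epithelial cells, lay between 2521 and 5370 CPM in the cultured and tumour cell libraries and between 267 and 641 CPM in stroma, whereas Epcam was at or near 0 there (highest 0.838 CPM) and between 3.06 and 6.49 CPM in stroma. Of 8 fibroblast markers, 8 were above the floor in all stromal libraries. The tumour cell library of peritoneal mouse 1 stood apart: its fibroblast markers summed to 1523 CPM against 220 to 339 in the other 3, and its 8 leukocyte markers to 194 CPM against 22.2 to 30.0. Lane 3 held BMEL WT replicates 1 and 2, and lane 4 held the remaining cultured libraries.

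Of the 37 genes, 11 were above 3 counts in all 25 libraries, 22 in some and 4 in none. The 11 were Wnt4, Wnt5a, Wnt7b, Dkk2 and the receptors Fzd1 to Fzd7. The 4 without any library above 3 counts were Wnt3a, Wnt8a, Wnt8b and Dkk4. Wnt1, Wnt10a, Fzd10, Sfrp5 and Dkk1 were near the floor, with at most 15 counts in any library. The map of all genes in all libraries shows 3 blocks: Wnt7a and Wnt7b in cultured cells, Wnt7b in tumour cells, and Sfrp1, Sfrp2 and Sfrp4 in peritoneal stroma. Among cultured cells Wnt9a was high only in BMEL WT, and Wnt5a was in both tumour cells and stroma. Fzd5 and Fzd7 were present throughout.

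**Figure D1:**
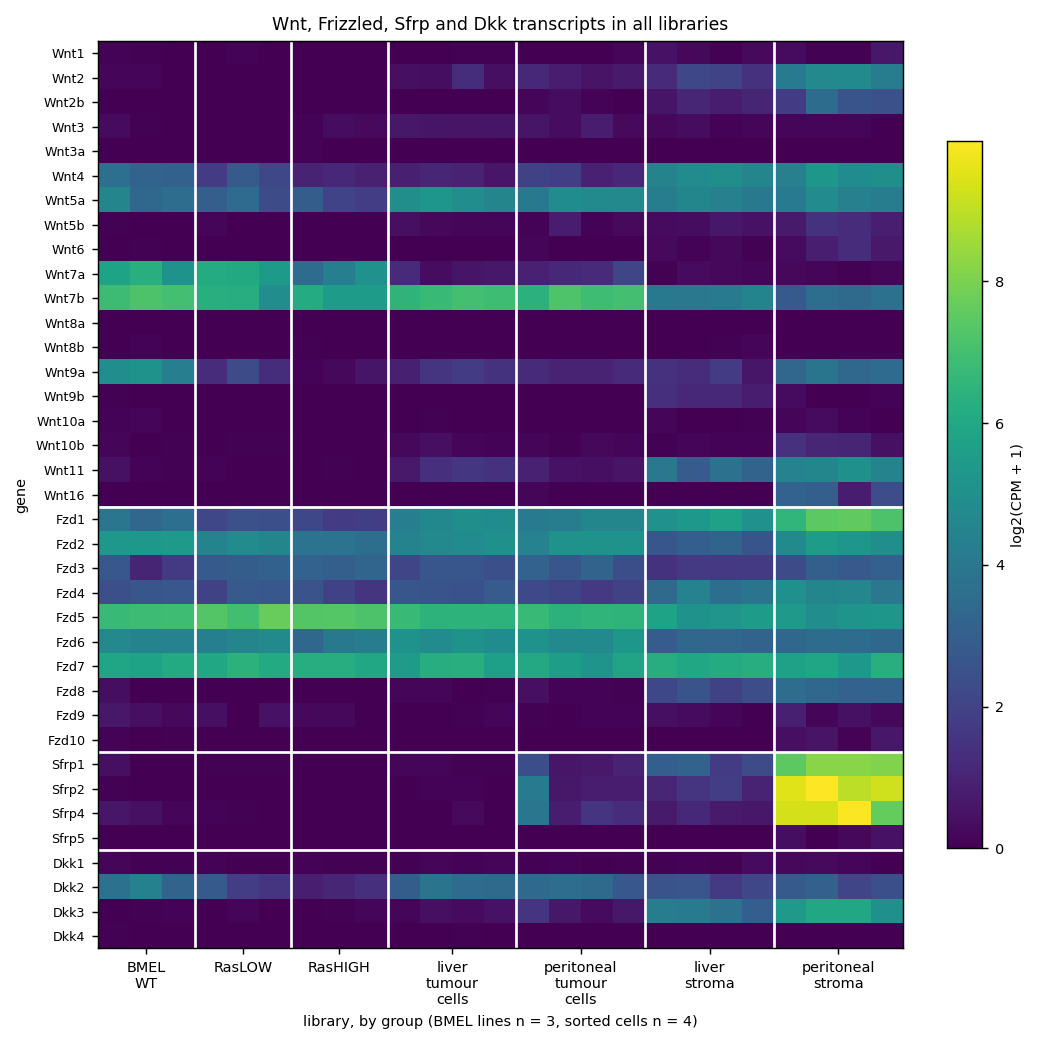
Level of the 37 genes (rows, by family) in the 25 libraries (columns, by group), as log2(CPM + 1) in colour. Sfrp1, Sfrp2 and Sfrp4 are bright in the 4 peritoneal stroma libraries, Wnt7b is bright in cultured and tumour cells, and Fzd5 and Fzd7 are present in each library.

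Promoter sequence is given for 6 genes that were lower in Ras-transduced cells or differed between the stromal sites, so that the letters stand beside the measurements. Each is the 250 bases before the transcription start in the RefSeq table (build GRCm38.p6), which held 25 of the 37 genes. It is written 5′ to 3′ on the strand of the gene. Capitals mark the TCF motif CTTTGA on either strand. Of the 6, Wnt9a and Fzd1 were lower in cultured Ras cells, Sfrp2, Wnt16 and Wnt11 were higher in peritoneal stroma, and Wnt9b was higher in liver stroma.
Wnt9a promoter, chr11:59306680-59306929 (+ strand): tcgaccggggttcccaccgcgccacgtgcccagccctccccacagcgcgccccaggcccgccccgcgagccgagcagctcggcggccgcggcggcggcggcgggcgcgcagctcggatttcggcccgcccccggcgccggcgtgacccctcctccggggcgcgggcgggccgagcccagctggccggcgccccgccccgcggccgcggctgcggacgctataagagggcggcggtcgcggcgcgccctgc
Fzd1 promoter, chr5:4758217-4758466 (- strand): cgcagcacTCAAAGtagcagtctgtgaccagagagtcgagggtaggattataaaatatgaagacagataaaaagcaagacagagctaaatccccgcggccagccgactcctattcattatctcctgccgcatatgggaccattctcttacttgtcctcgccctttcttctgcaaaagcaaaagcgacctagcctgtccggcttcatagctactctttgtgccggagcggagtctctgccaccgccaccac
Sfrp2 promoter, chr3:83766071-83766320 (+ strand): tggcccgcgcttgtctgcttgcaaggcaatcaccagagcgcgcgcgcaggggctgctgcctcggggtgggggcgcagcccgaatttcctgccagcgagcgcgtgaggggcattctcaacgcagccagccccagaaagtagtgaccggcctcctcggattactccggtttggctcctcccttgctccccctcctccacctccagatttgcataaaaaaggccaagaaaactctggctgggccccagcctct
Wnt16 promoter, chr6:22287977-22288226 (+ strand): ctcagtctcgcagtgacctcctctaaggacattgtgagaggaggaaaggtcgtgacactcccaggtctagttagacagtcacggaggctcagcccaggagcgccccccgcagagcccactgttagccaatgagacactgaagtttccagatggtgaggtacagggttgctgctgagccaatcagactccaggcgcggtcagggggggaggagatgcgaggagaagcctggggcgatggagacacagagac
Wnt11 promoter, chr7:98834862-98835111 (+ strand): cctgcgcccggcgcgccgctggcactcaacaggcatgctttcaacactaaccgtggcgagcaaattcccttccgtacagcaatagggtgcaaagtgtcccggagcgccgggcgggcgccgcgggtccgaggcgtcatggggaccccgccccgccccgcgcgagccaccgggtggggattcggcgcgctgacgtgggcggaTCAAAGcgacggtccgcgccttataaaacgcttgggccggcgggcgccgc
Wnt9b promoter, chr11:103749822-103750071 (- strand): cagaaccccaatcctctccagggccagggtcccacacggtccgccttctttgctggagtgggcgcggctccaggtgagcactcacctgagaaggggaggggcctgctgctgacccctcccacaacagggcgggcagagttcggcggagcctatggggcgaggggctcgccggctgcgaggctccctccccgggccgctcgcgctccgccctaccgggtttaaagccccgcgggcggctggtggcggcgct

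In these windows the 3 motifs searched on both strands were rare. CTTTGA, bound by TCF factors, was in 4 of the 28 windows of these gene families, those of Fzd1, Wnt11, Wnt5b and Dkk1, and in 13.8% of all 32851 windows of the same length. TGANTCA, the AP-1 motif, was in 1 of the 28 (a Wnt5b start) and in 6.75% of all windows. CCGGAAGT, an Ets motif, was in none of the 28 and in 2.88% of all. Base composition differed more: the Wnt9a window held 48 CG dinucleotides, Wnt11 37 (16 at a second listed start, not printed here), Wnt9b 22, Sfrp2 16, Fzd1 12 and Wnt16 9, beside a median of 6 over all windows. These matches describe letters and say nothing of binding.

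The lines in culture were compared to ask how the dose of Ras changes the expression of the family, with edgeR's quasi-likelihood test on the 2 groups concerned and p-values adjusted by Benjamini-Hochberg over all genes of the fit. Levels below are CPM, fold changes come from the 2-group fits, and a gene is called at an adjusted p under 0.05. With high Ras, ligands and Dkk2 were lower: Wnt9a fell 113-fold, Dkk2 11.8-fold, Wnt4 8.92-fold, Wnt5a 3.57-fold and Wnt7b 2.55-fold. Of the receptors, Fzd1 and Fzd2 fell 4.18-fold and 3.25-fold, and Fzd5 rose 1.34-fold. With low Ras, Wnt9a, Fzd1 and Fzd2 were called lower and no gene of the family higher.

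In RasHIGH against BMEL WT, 13 of the 37 genes passed the filter on low counts, of which 7 were called lower and 1 higher. Over all 12331 genes tested, 11.7% were called lower and 10.9% higher. The median log2 fold change of the 13 was -1.45, against -0.02 over all genes. In RasLOW against BMEL WT, 14 passed, 3 were called lower and none higher, beside 4.05% lower and 1.92% higher over 12307 genes, with a median of -0.67 against 0.01. At an unadjusted p under 0.05 the counts were 11 of 13 and 7 of 14, beside 4331 of 12331 and 2636 of 12307 over all genes. Both comparisons share the BMEL WT libraries.

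Wnt9a, a ligand known from the development of joints and of the liver, stood at 28.9, 33.7 and 18.2 CPM in BMEL WT. It was at 1.44, 4.00 and 1.499 CPM in RasLOW and at 0.0757, 0.172 and 0.496 CPM in RasHIGH. None of the 3 groups overlapped, and the lowest RasHIGH library was below its detection floor. The log2 fold change against BMEL WT was -3.55 ± 0.48 (SE, n = 3 against 3, edgeR adjusted p = 0.0109) with low Ras and -6.82 ± 0.55 (adjusted p = 0.000536) with high Ras.

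Wnt4, a ligand that often signals without beta-catenin, stood at 11.7, 8.09 and 7.59 CPM in BMEL WT, at 2.34, 6.10 and 3.53 CPM in RasLOW and at 0.985, 1.25 and 0.902 CPM in RasHIGH. The groups did not overlap. The change was -3.16 ± 0.29 on the log2 scale with high Ras (edgeR adjusted p = 0.000758). Low Ras gave -1.21 ± 0.40, which was not called in the main fit (edgeR adjusted p = 0.132). Wnt4 was called lower with low Ras by DESeq2 (adjusted p = 0.0252). The edgeR fits of all libraries (adjusted p = 0.0345) and without RasLOW replicate 2 (adjusted p = 0.0158) called it too, and no other fit did. Wnt5a, the classical ligand of the branches without beta-catenin, stood at 22.1, 9.30 and 10.9 CPM in BMEL WT and at 6.67, 3.06 and 2.48 CPM in RasHIGH, with RasLOW at 4.05 to 10.4 CPM and overlapping both. Its log2 fold change with high Ras was -1.83 ± 0.48 (adjusted p = 0.0326) and was not called without BMEL WT replicate 1 or 3, without RasHIGH replicate 2 or 3 or in lane 4 alone, with adjusted p between 0.00101 and 0.310 over all alternatives.

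The Wnt7 pair made up most of the ligand transcripts of cultured cells. Wnt7b was at 115, 146 and 126 CPM in BMEL WT, at 77.9, 72.8 and 29.1 CPM in RasLOW and at 68.7, 44.1 and 43.3 CPM in RasHIGH. Both Ras groups lay wholly below BMEL WT. The log2 fold change was -1.35 ± 0.20 with high Ras (edgeR adjusted p = 0.00444) and -1.14 ± 0.34 with low Ras (adjusted p = 0.104, not called). With low Ras, DESeq2 called Wnt7b lower (adjusted p = 0.0148). The edgeR fits of all libraries (adjusted p = 0.0126) and without RasLOW replicate 2 (adjusted p = 0.0483) called it too, and no other fit did. Wnt7a, its close relative, was at 54.5, 74.8 and 33.4 CPM in BMEL WT, at 69.2, 66.3 and 42.9 CPM in RasLOW and at 10.5, 18.7 and 31.8 CPM in RasHIGH. The RasHIGH libraries lay below the others, with a log2 fold change of -1.45 ± 0.45 that missed the threshold in the main fit (edgeR adjusted p = 0.0569). DESeq2 called Wnt7a lower with high Ras (adjusted p = 0.00515). So did edgeR without the filter (adjusted p = 0.0387), with all libraries (adjusted p = 0.0213) and without RasHIGH replicate 3 (adjusted p = 0.0269).

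Dkk2, which binds Lrp co-receptors and can block or favour signalling, was the Dkk gene of cultured cells, at 12.1, 19.8 and 8.03 CPM in BMEL WT. It was at 6.15, 2.49 and 1.86 CPM in RasLOW and at 0.796, 1.08 and 1.58 CPM in RasHIGH, again without overlap. The change with high Ras was -3.57 ± 0.43 on the log2 scale (edgeR adjusted p = 0.00203), and with low Ras -1.96 ± 0.51 (adjusted p = 0.0703, not called). DESeq2 called Dkk2 lower with low Ras (adjusted p = 0.00135). So did edgeR without the filter (adjusted p = 0.0461), with all libraries (adjusted p = 0.00459) and without RasLOW replicate 1 (adjusted p = 0.0407). Sfrp transcripts were near the floor in cultured cells: sums of the 4 genes ran from 0.111 to 0.873 CPM for BMEL WT, reached at most 0.108 CPM for RasLOW and were 0 for RasHIGH, and none passed the filter.

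Among receptors, Fzd1 was at 14.2, 8.89 and 11.4 CPM in BMEL WT, at 3.38, 4.56 and 4.46 CPM in RasLOW and at 3.45, 2.45 and 2.57 CPM in RasHIGH. Fzd2 was at 38.5, 38.5 and 40.0 CPM in BMEL WT, at 21.6, 27.4 and 23.1 CPM in RasLOW and at 12.9, 13.0 and 11.1 CPM in RasHIGH. Neither gene's Ras groups reached the BMEL WT libraries, and for Fzd2 RasHIGH lay below RasLOW as well. For Fzd1 the log2 fold change was -1.51 ± 0.27 with low Ras (edgeR adjusted p = 0.0245) and -2.06 ± 0.26 with high Ras (adjusted p = 0.00236). For Fzd2 it was -0.73 ± 0.15 (adjusted p = 0.0388) and -1.70 ± 0.14 (adjusted p = 0.000542). With low Ras both receptors lost the call in 7 alternatives, among them leaving out any BMEL WT library or RasLOW replicate 1 or 3.

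Fzd5 moved the other way. It was at 108, 114 and 117 CPM in BMEL WT, at 157, 123 and 199 CPM in RasLOW and at 159, 163 and 146 CPM in RasHIGH, with a log2 fold change of 0.43 ± 0.11 for high Ras (edgeR adjusted p = 0.0314) that was not called in 7 alternatives (without any BMEL WT library or RasHIGH replicate 2, in lane 4 alone, in the fit of all libraries and with the replicate block). Fzd7, at 53.9 to 84.4 CPM over the 9 cultured libraries, gave 0.15 ± 0.14 (adjusted p = 0.495). Fzd3, Fzd4 and Fzd6 were not called in either comparison in the main fits. DESeq2 called Fzd3 higher with high Ras (1.402 ± 0.525, adjusted p = 0.0344). The edgeR fit of all libraries called Fzd3 higher with high Ras (1.42 ± 0.39, adjusted p = 0.00803) and with low Ras (1.20 ± 0.39, adjusted p = 0.0368). That fit also called Fzd6 lower with high Ras (-0.64 ± 0.21, adjusted p = 0.0233). Fzd4 was called lower with high Ras when RasHIGH replicate 1 was left out (-1.12 ± 0.29).

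RasHIGH against RasLOW gave no call among 13 genes tested with edgeR. An unadjusted p under 0.05 was found for 5 of them, beside 1170 of 11962 over all genes. Over all 11962 genes only 0.0585% were called higher and 0.0167% lower. DESeq2 called 414 of 13750 genes over all, 242 higher and 172 lower. Of the family it called 4, all lower with high Ras: Wnt9a, Wnt4, Wnt7a and Fzd2. Their edgeR log2 fold changes were -3.23 ± 0.77, -1.93 ± 0.45, -1.54 ± 0.41 and -0.96 ± 0.19, with adjusted p from 0.142 to 0.238. In each of the 4 the RasHIGH libraries lay below all RasLOW libraries.

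Lane coincided in part with the vector in these comparisons. Among lane 4 libraries, which leave 1 BMEL WT library whose spread is assumed to be that of the others, Wnt9a, Wnt4 and Fzd2 were still called with high Ras (log2 fold changes -6.24, -2.90 and -1.74), and no gene of the family with low Ras, where the values were -2.998 for Wnt9a, -1.498 for Fzd1 and -0.77 for Fzd2. Without any 1 of the 3 BMEL WT libraries or RasLOW replicate 3, 1 gene was called in RasLOW, and without RasLOW replicate 2, 6 were. The 7 hepatocyte markers were also lower, with sums from 15.4 to 58.2 CPM for BMEL WT, 1.65 to 5.18 for RasLOW and 0.676 to 2.58 for RasHIGH, and both markers tested were called lower in each Ras line. Of 6 mesothelial markers, which summed to 1236 to 1471 CPM for BMEL WT and 589 to 812 for RasHIGH, all 4 tested were called lower with high Ras. In RasLOW they summed to 967 to 2695 CPM, and 1 of 4 tested was called lower. Their part in the result was not tested.

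**Figure D2:**
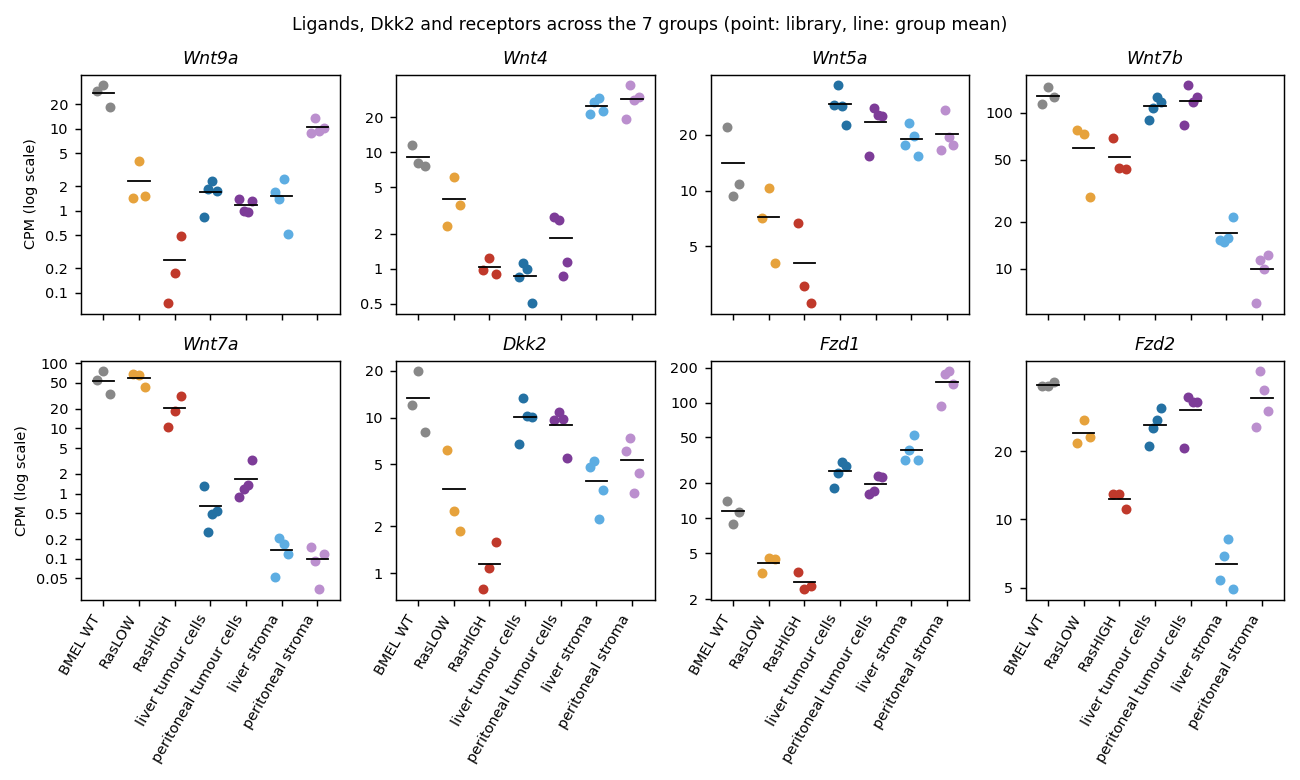
CPM on a log scale for 8 genes in each library of the 7 groups (points), with the group mean as a line. Wnt9a, Wnt4, Dkk2, Fzd1 and Fzd2 step down from BMEL WT to RasHIGH, and in tumour cells Fzd1, Wnt5a and Wnt7b are above RasHIGH while Wnt7a is below it.

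Genes around the family were called in both directions with high Ras, beside 11.7% lower and 10.9% higher over all genes (median -0.02). Of 28 genes for Wnt secretion, co-receptors and extracellular modulators, 16 were tested with high Ras, 3 were called higher and 4 lower, with a median log2 fold change of 0.04. Wls, which carries Wnt proteins to the cell surface, fell by 1.46 ± 0.12 on the log2 scale (edgeR adjusted p = 0.000569). Among 20 beta-catenin target genes 11 were tested, 2 were called higher and 5 lower (median 0.08). Axin2, a target used as a readout of beta-catenin, ranged from 4.03 to 5.03 CPM for BMEL WT, 1.51 to 1.62 for RasLOW and 0.189 to 0.451 for RasHIGH, with log2 fold changes of -1.55 ± 0.28 (adjusted p = 0.0241) and -3.88 ± 0.38 (adjusted p = 0.000954). Of 23 genes of the pathway inside the cell 21 were tested, 4 were called higher with high Ras and 3 lower (median 0.17), with Ctnnb1, the beta-catenin gene, at 0.74 ± 0.17 (adjusted p = 0.0198).

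Of 10 pericentral liver genes, 6 were tested with high Ras, and Axin2, Tbx3 and Lgr5 were called lower (median -1.35). These also stand in the list of target genes, so their calls are counted in both lists. No other pericentral gene was called. Of 14 planar cell polarity genes 10 were tested, 1 was called higher and 4 lower (median -0.30), led by Prickle1 at -3.26 ± 0.54 (edgeR adjusted p = 0.00641). With low Ras, no gene of the secretion and co-receptor list was called among 16, and 1 among 21 of the intracellular list (Tle3). Called were also 2 among 11 targets (Axin2 and Prox1), 1 among 5 pericentral genes (Axin2 again) and 1 among 10 polarity genes. All were lower, beside 4.05% lower and 1.92% higher over all genes. At an unadjusted p under 0.05, 4 of the 16 secretion and co-receptor genes passed, which is near the share over all genes (2636 of 12307).

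Divided by exon length, the levels of different genes can be set side by side. In BMEL WT, Wnt7b led the ligands with 29.2 CPM per kilobase, ahead of Wnt7a with 17.1 and Wnt9a with 8.09, and the libraries of these neighbours did not overlap. In RasLOW, Wnt7a (18.7) and Wnt7b (13.6) overlapped. In RasHIGH, Wnt7b held 61.7% and Wnt7a 33.5% of the summed ligand level per length. In tumour cells Wnt7b made up 81.6% (liver) and 84.0% (peritoneum), and Wnt5a was next with 12.2% and 9.39%. Liver stroma was led by Wnt4 (5.96 CPM per kilobase, 34.1%) ahead of Wnt7b (3.82), and peritoneal stroma by Wnt2 (9.38, 27.1%), whose libraries overlapped those of Wnt4 (6.85) and Wnt11 (6.59).

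The receptors were more alike. Fzd5 led in each of the 5 cultured and tumour cell groups with 13.2 to 23.1 CPM per kilobase, and Fzd7 was next with 10.5 to 14.9. In both tumour cell groups the ranges of Fzd5 and Fzd7 overlapped. Liver stroma was led by Fzd7 at 14.5, and peritoneal stroma by Fzd1 at 34.3, which was 46.6% of its summed receptor level per length. The summed ligand level per length was 58.5 ± 11.2 (SD, n = 3) in BMEL WT, 34.9 ± 11.3 in RasLOW and 19.1 ± 2.09 in RasHIGH, whereas the summed receptor level was 50.0 ± 2.31, 54.0 ± 5.51 and 47.2 ± 2.52.

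**Figure D3:**
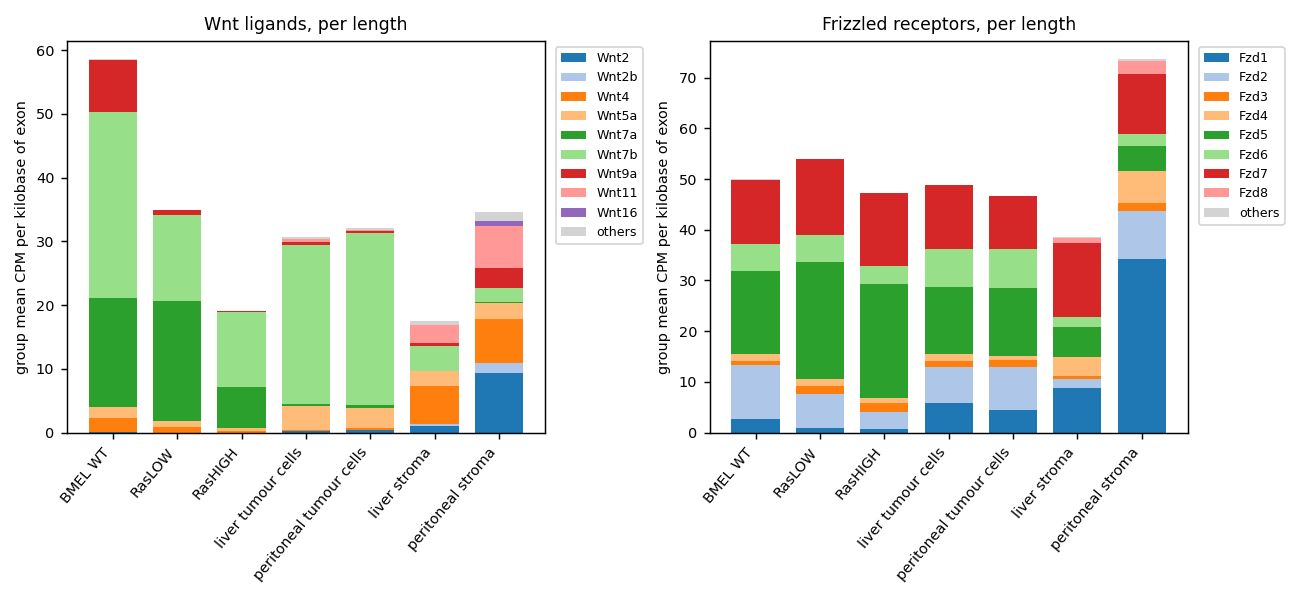
Stacked group means in CPM per kilobase of exon for the Wnt ligands (left) and Frizzled receptors (right) in the 7 groups; genes under 0.5 CPM per kilobase in all groups are pooled as others. Wnt7b fills most of the tumour cell bars, stromal bars hold Wnt2, Wnt4 and Wnt11, and Fzd1 takes the largest part of the peritoneal stroma bar.

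Cultured and sorted cells differ also in growth, dissociation, sorting and lane, so their levels are set side by side without a test. Wnt7a averaged 20.3 ± 10.7 CPM (SD, n = 3) in RasHIGH and 59.5 ± 14.4 in RasLOW, but 0.646 ± 0.454 (n = 4) in liver and 1.66 ± 1.08 in peritoneal tumour cells. Fzd1 was at 2.82 ± 0.544 CPM in RasHIGH and 4.13 ± 0.654 in RasLOW, and at 25.3 ± 5.38 and 19.8 ± 3.65 in the tumour cells. Wnt5a was at 4.07 ± 2.27 CPM in RasHIGH against 29.3 ± 5.94 and 23.6 ± 5.59, and Dkk2 at 1.15 ± 0.396 against 10.1 ± 2.72 and 8.97 ± 2.35. None of these tumour cell values overlapped the RasHIGH values of the same gene. The share of all genes without overlap was not counted, and other genes of the family did overlap. Fzd7 was at 60.7 to 73.3 CPM in RasHIGH and at 44.3 to 75.2 CPM in liver tumour cells. Wnt4 was at 0.215 to 0.298 CPM per kilobase of exon in RasHIGH and at 0.122 to 0.270 in liver tumour cells.

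Liver and peritoneal tumour cells of the same mice were compared to ask whether the site alters the tumour cells. Of the 8 ligands and 7 receptors tested none was called by edgeR. Wnt7b was at 89.7 to 126 CPM in the liver and 84.1 to 150 CPM in the peritoneum (log2 fold change -0.12 ± 0.16, edgeR adjusted p = 0.717), and Fzd5 at 86.5 to 107 and 84.6 to 108 CPM (-0.03 ± 0.11, adjusted p = 0.911). Wnt11, at 0.593 to 1.97 and 0.346 to 0.905 CPM, gave 1.48 ± 0.46 (adjusted p = 0.106), Wnt7a -1.34 ± 0.55 (adjusted p = 0.207) and Wnt4 -1.09 ± 0.44 (adjusted p = 0.196), and the sites overlapped for each. Fzd4, at 5.43, 5.09, 4.73 and 6.21 CPM in the liver and 3.62, 3.18, 2.15 and 2.88 CPM in the peritoneum, did not overlap (0.85 ± 0.21, adjusted p = 0.0568). DESeq2 on the same libraries called Fzd4 (adjusted p = 0.00298) and Wnt11 (adjusted p = 0.0366) higher in the liver, and 556 of 14604 genes higher over all. The genes called by edgeR were Sfrp1, Sfrp2 and Sfrp4, all lower in the liver. They were 3 of 20 tested, with none called higher, beside 1.87% lower and 1.33% higher over 13074 genes. The median of the 20 was -0.07 against -0.01 over all genes.

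Sfrp2 had 0, 0.0565, 0.0606 and 0 CPM in liver tumour cells of mice 1 to 4 and 16.2, 0.544, 0.710 and 0.738 CPM in peritoneal tumour cells. Sfrp4 had 0, 0, 0.182 and 0 CPM against 14.0, 0.679, 1.88 and 1.44 CPM. Sfrp1 had 0.0912, 0.0848, 0.0303 and 0.0320 CPM against 4.31, 0.516, 0.614 and 0.960 CPM. The sites did not overlap for any of the 3, and peritoneal mouse 1, the library with the raised fibroblast and leukocyte markers, was the highest each time.

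The log2 fold changes were -4.64 ± 0.85 for Sfrp1 (edgeR adjusted p = 0.0243), -6.64 ± 1.35 for Sfrp4 (adjusted p = 0.0313) and -7.19 ± 1.56 for Sfrp2 (adjusted p = 0.0375). For Sfrp2, liver tumour cells held 4 counts in all, a count ratio of 144 with a 95% interval of 56.0 to 531 for counting error only. Without mouse 1 of the peritoneal tumour cells, the values were -3.40 for Sfrp1, -4.88 for Sfrp4 and -4.41 for Sfrp2, and these 3 were called along with Fzd4 and Wnt11, which were higher in the liver. Without liver tumour replicate 2, 3 or 4 none was called, and without replicate 1 there was 1. With the mouse as a block, Sfrp1 alone was called (adjusted p = 0.0375), Sfrp2 had an adjusted p of 0.0775 and Sfrp4 of 0.0659.

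The 8 fibroblast markers moved the same way, with 6 of 8 called lower in liver tumour cells. They summed to 41.5 to 62.6 CPM in liver tumour cells and to 220 to 1523 CPM in peritoneal tumour cells, where none was at 0. In bulk samples fewer cells of a type and less RNA per cell cannot be told apart. The 7 hepatocyte markers went the other way, with 10.9 to 50.4 CPM in liver and 1.15 to 10.6 CPM in peritoneal tumour cells. All 3 Sfrp genes were over 2 times higher in stroma than in tumour cells on average. They were the only genes of the family called, so the 10 tested genes that were not higher in this way held no call by construction. Per 1000 CPM of fibroblast markers, Sfrp2 came to 10.6, 1.65, 2.10 and 3.35 in peritoneal tumour cells of mice 1 to 4 and to 6.14 to 13.3 in peritoneal stroma. Sfrp4 came to 9.22, 2.06, 5.56 and 6.53 against 3.35 to 11.9, and Sfrp1 to 2.83, 1.57, 1.81 and 4.36 against 3.18 to 4.64. The stromal range held mouse 1 for Sfrp2, mice 1, 3 and 4 for Sfrp4 and mouse 4 for Sfrp1, and the other values lay below it. Whether the Sfrp counts of tumour cell libraries come from stromal cells in the sort was not tested.

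In the stroma the site separated the family. Peritoneal stroma held far more of the Sfrp antagonists than liver stroma, 825-fold for Sfrp4, 460-fold for Sfrp2 and 49.6-fold for Sfrp1, and also more Wnt2, Wnt2b, Wnt9a, Wnt11, Wnt16, Dkk3, Fzd1 and Fzd2. Liver stroma held more Wnt9b and Wnt7b. Of 23 genes tested, 15 were called lower in liver stroma and 2 higher. Over 14755 genes, 18.5% were called lower and 14.9% higher, and the median log2 fold change was -1.59 for the family and 0.02 for all genes.

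Sfrp2 had 1.10, 1.86, 2.49 and 0.992 CPM in liver stroma of mice 1 to 4 and 729, 1011, 510 and 616 CPM in peritoneal stroma. Sfrp4 had 0.630, 1.23, 0.649 and 0.555 CPM against 653, 649, 962 and 194 CPM. Sfrp1 had 7.01, 8.14, 2.29 and 3.85 CPM against 174, 296, 293 and 269 CPM. The sites were far apart in each mouse. The log2 fold changes, liver against peritoneum, were -8.85 ± 0.38 for Sfrp2 (edgeR adjusted p = 9.6e-07), -9.69 ± 0.59 for Sfrp4 (adjusted p = 4.73e-06) and -5.63 ± 0.40 for Sfrp1 (adjusted p = 8.88e-06).

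Dkk3, a divergent member of the Dkk family, had 17.0, 16.0, 12.3 and 6.94 CPM in liver stroma and 39.8, 61.3, 60.6 and 31.4 CPM in peritoneal stroma (-1.92 ± 0.30, edgeR adjusted p = 0.00107). Dkk2, at 2.22 to 5.23 and 3.26 to 7.40 CPM, was not called (-0.47 ± 0.33, adjusted p = 0.301) except with the mouse as a block (-0.49, adjusted p = 0.0387). The sites thus overlapped for Dkk2 and not for Dkk3.

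Among ligands, Wnt16 was at 0 counts in all 4 liver stroma libraries and at 7.73, 7.22, 0.762 and 4.11 CPM in peritoneal stroma. Peritoneal stroma was thus at least 48.9-fold higher, taking 3 counts per library as the level in the liver (edgeR adjusted p = 0.00178). Wnt2, a ligand that endothelial cells of the liver sinusoids are known to release, had 1.26, 3.47, 3.11 and 1.71 CPM in liver stroma and 15.7, 24.98, 26.2 and 17.8 CPM in peritoneal stroma (-3.20 ± 0.33, adjusted p = 7.6e-05). Its relative Wnt2b had 0.472 to 1.12 against 2.39 to 10.4 CPM (-2.82 ± 0.47, adjusted p = 0.00144).

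Wnt9a had 1.68, 1.40, 2.46 and 0.516 CPM in liver stroma and 8.93, 13.6, 9.46 and 10.3 CPM in peritoneal stroma (-2.84 ± 0.37, edgeR adjusted p = 0.00034). Wnt11, a ligand of planar polarity signalling, had 14.4, 6.35, 12.3 and 8.05 CPM against 20.7, 22.7, 31.1 and 21.2 CPM (-1.26 ± 0.25, adjusted p = 0.00402). Wnt5b, close to the floor, averaged 0.358 against 1.14 CPM (-1.72 ± 0.46, adjusted p = 0.0165) and was not called without peritoneal stroma replicate 2 or in the fit of all libraries. Each of these ligands was higher in every peritoneal library than in any liver library.

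Wnt9b went the opposite way, with 1.60, 1.16, 1.20 and 0.674 CPM in liver stroma and 0.224, 0, 0 and 0.0775 CPM in peritoneal stroma (3.79 ± 0.72, edgeR adjusted p = 0.00316). Wnt9b is known as a ligand of the endothelium around central veins, and it was above the floor in 5 of the 25 libraries, 4 of them liver stroma. The 9 endothelial markers summed to 634 to 1356 CPM in liver stroma and to 418 to 759 CPM in peritoneal stroma, and 3 were called higher in the liver and 1 lower. Per 1000 CPM of these markers, Wnt9b came to 0.854 to 2.52 in the liver and to 0 to 0.295 in the peritoneum, and Wnt2 to 1.99 to 3.86 and 20.7 to 59.7. The sites did not overlap on this scale either.

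Wnt7b, the main ligand of the tumour cells, had 15.2, 14.9, 15.7 and 21.5 CPM in liver stroma and 6.05, 11.3, 10.0 and 12.3 CPM in peritoneal stroma (0.71 ± 0.22, edgeR adjusted p = 0.0292) and was not called without liver stroma replicate 4 or peritoneal stroma replicate 3. The 6 BMEL and epithelial markers were at 1269 to 1621 CPM in liver stroma and 698 to 1144 CPM in peritoneal stroma, and 4 of the 6 were called higher in the liver. Wnt7b and these markers moved together, and their part in the result was not tested. Wnt4 and Wnt5a, at 19.3 to 37.6 and 15.3 to 27.3 CPM over both sites, were not called (adjusted p = 0.356 and 0.591).

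Receptors followed the antagonists with smaller differences. Fzd1 had 32.0, 38.7, 52.0 and 32.1 CPM in liver stroma and 93.6, 176, 186 and 145 CPM in peritoneal stroma (-2.003 ± 0.23, edgeR adjusted p = 0.00016). Fzd2 had 5.43, 6.91, 8.23 and 4.96 CPM against 25.5, 44.8, 37.0 and 30.1 CPM (-2.47 ± 0.22, adjusted p = 2.81e-05). Fzd3 and Fzd8 were also called, at -1.59 ± 0.23 (adjusted p = 0.000663) and -1.25 ± 0.20 (adjusted p = 0.00118), Fzd8 being lost in the fit of all libraries (adjusted p = 0.101). Fzd4, at 9.97 to 20.2 against 14.5 to 31.3 CPM, overlapped between sites (-0.80 ± 0.27, adjusted p = 0.0427) and was not called in 8 alternatives, among them the mouse as a block (adjusted p from 0.0106 to 0.107 over all alternatives). Fzd5, Fzd6 and Fzd7 were not called.

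The 8 fibroblast markers were all called lower in liver stroma, with sums of 4126 to 8361 CPM in the liver and 54717 to 83133 CPM in the peritoneum and no marker at 0. Per 1000 CPM of these markers, Sfrp2 came to 0.132 to 0.417 in liver stroma and 6.14 to 13.3 in peritoneal stroma, Sfrp4 to 0.0753 to 0.176 and 3.35 to 11.9, and Sfrp1 to 0.383 to 1.17 and 3.18 to 4.64, without overlap. On the same scale Wnt2 (0.151 to 0.520 and 0.287 to 0.315) and Wnt9a (0.125 to 0.412 and 0.114 to 0.178) overlapped, while Fzd1 (3.83 to 8.70 and 1.71 to 2.51), Dkk3 (1.68 to 2.30 and 0.543 to 0.768) and Wnt11 (0.912 to 2.06 and 0.284 to 0.377) were higher in the liver. The 4 Kupffer cell markers summed to 191 to 532 CPM in liver stroma and 4.85 to 24.5 CPM in peritoneal stroma, where Clec4f was at 0, and the 7 hepatocyte markers to 44.9 to 281 CPM and 0.469 to 1.98 CPM. The part of these cells in the site differences was not tested.

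**Figure D4:**
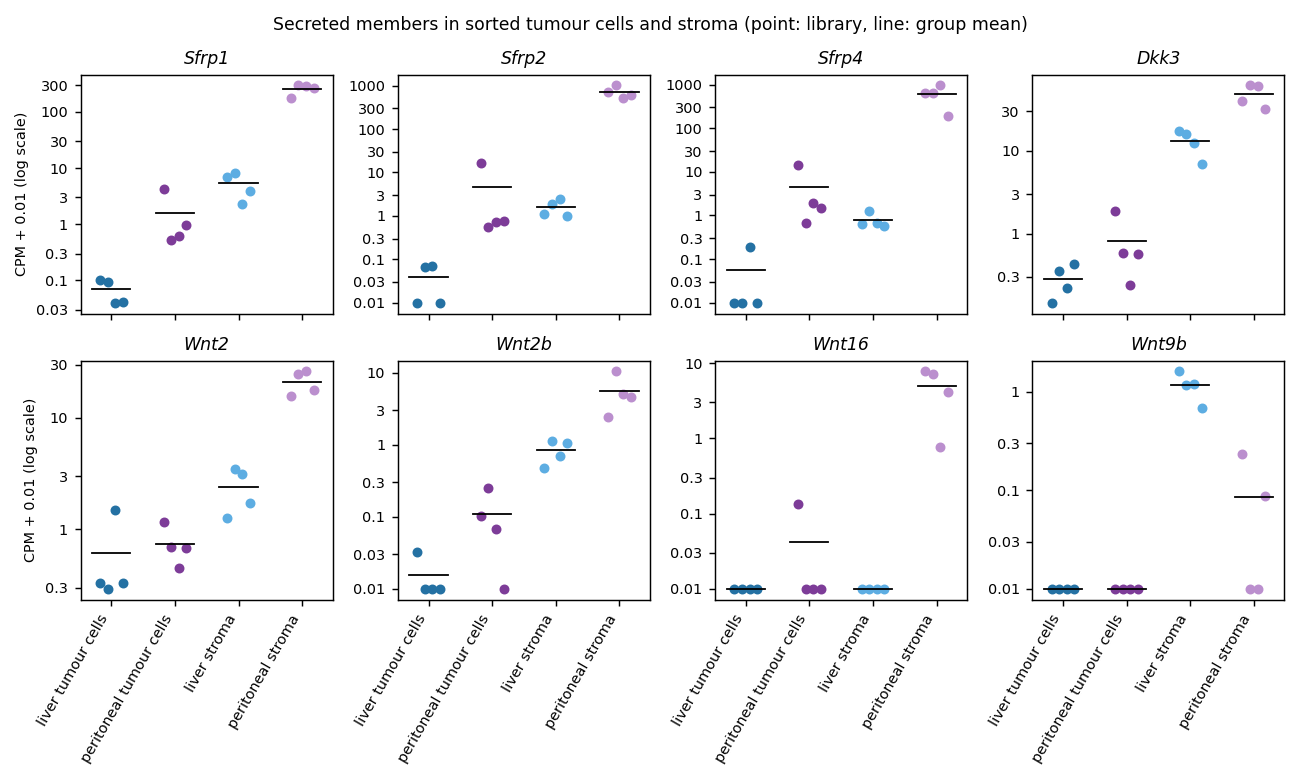
CPM plus 0.01 on a log scale for 8 secreted genes in each library of the 4 sorted groups (points), with the group mean as a line; points at 0.01 are libraries without a count. Peritoneal stroma is highest for 7 of the genes and liver stroma for Wnt9b, and among peritoneal tumour cells mouse 1 is high for Sfrp1, Sfrp2 and Sfrp4.

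Lists of the surrounding pathway were read against the shares over all genes between stromal sites, 18.5% lower and 14.9% higher in the liver with a median of 0.02. Of the secretion, co-receptor and modulator list 22 genes were tested, 13 were called lower in liver stroma and 5 higher (median log2 fold change -1.05). Ror2, a receptor for Wnt5a, was at 3.49 to 5.81 CPM in liver and 22.97 to 44.8 CPM in peritoneal stroma (-2.81 ± 0.23, edgeR adjusted p = 2.16e-05). Rspo3, an agonist that enhances Wnt signalling at the receptor and is known from central vein endothelium, was at 1.40 to 5.16 and 0.141 to 0.935 CPM (2.17 ± 0.60, adjusted p = 0.0207). Of 17 target genes tested 8 were lower in the liver and 3 higher (median 0.01), with Tbx3 at -4.00 ± 0.29 (adjusted p = 1.04e-05). Of 7 pericentral genes 4 were lower and 1 higher, and of 14 polarity genes 7 lower and 1 higher, with medians of -0.81 and -0.49. The lists share genes, and Ror2 (also a polarity gene) and Tbx3 (also a pericentral gene) are counted in more than 1 list. Of 23 intracellular genes 4 were lower and 4 higher (median 0.02), which is near the share over all genes.

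Between liver and peritoneal tumour cells, 3 of 16 tested genes of the secretion and co-receptor list were called. Over all genes the shares were 1.33% higher and 1.87% lower in the liver. Kremen1, a Dkk receptor, was at 65.1 to 97.5 CPM in the liver and 46.2 to 47.6 CPM in the peritoneum (0.79 ± 0.11, edgeR adjusted p = 0.0103), and Lgr4 and Apcdd1 were lower in the liver. Of the other lists, Tle2 (1 of 21 intracellular genes) and Apcdd1 again (1 of 11 targets) were called lower. None of 7 pericentral and 9 polarity genes was called. At an unadjusted p under 0.05, 1 and 0 of these passed, beside 2641 of 13074 over all genes.

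Whether the site difference itself differed between stroma and tumour cells was tested in a joint fit of the 16 sorted libraries. Of 25 genes tested, 6 had a more negative difference, liver against peritoneum, in stroma than in tumour cells, and 1 a more positive difference. Over 15331 genes these shares were 6.79% and 7.5%, and the median was -0.55 for the family and 0.12 for all genes. The difference between the differences was -3.29 ± 0.52 on the log2 scale for Wnt9a (edgeR adjusted p = 0.000684), -2.82 ± 0.69 for Wnt2 (adjusted p = 0.0127), -2.68 ± 0.52 for Wnt11 (adjusted p = 0.00296), -2.27 ± 0.32 for Fzd1 (adjusted p = 0.000266), -2.18 ± 0.29 for Fzd2 (adjusted p = 0.000198) and -1.58 ± 0.35 for Fzd4 (adjusted p = 0.00696). Wnt7b, at 0.92 ± 0.29 (adjusted p = 0.0491), was not called in 17 alternatives, RLE size factors and leaving out any stroma library among them.

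The Sfrp genes were not among these: the differences were -1.62 ± 3.93 for Sfrp2 and -2.99 ± 3.10 for Sfrp4, the SE was 1.72 for Sfrp1, and the adjusted p ran from 0.559 to 0.825. Within these errors a difference was not detectable for them in either direction. Wnt16 and Wnt9b, at 0 in whole groups, had no usable estimate, though they count among the 25 genes tested and in their median.

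**Figure D5:**
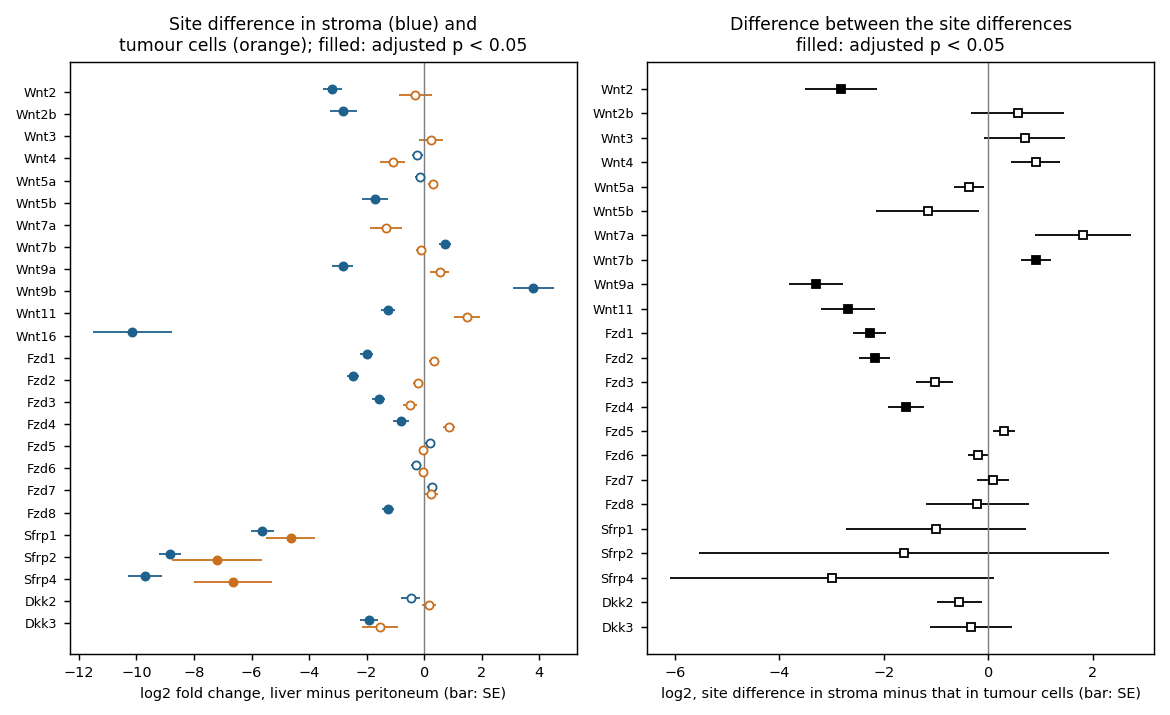
Left, log2 fold change of liver against peritoneum with its SE in stroma (blue) and tumour cells (orange) for genes tested; right, the difference between the 2 with its SE. Filled symbols passed an adjusted p of 0.05: in stroma 17 genes did, in tumour cells Sfrp1, Sfrp2 and Sfrp4, and on the right Wnt2, Wnt7b, Wnt9a, Wnt11, Fzd1, Fzd2 and Fzd4.

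Tumour cells and stroma of the same tumours were compared to see which side carries each gene. Wnt7b, Fzd5, Fzd6 and Dkk2 were higher in tumour cells at both sites, and Wnt2, Wnt2b, Wnt4, Wnt11, Sfrp1, Sfrp2, Sfrp4, Dkk3, Fzd1, Fzd4 and Fzd8 were higher in stroma at both. In the liver, of 22 genes tested 8 were called higher in tumour cells and 12 lower, where 38.4% and 39.4% of 14620 genes were. In the peritoneum, of 23 tested 5 were higher and 14 lower, where 39.5% and 37.1% of 14584 genes were. The medians were -1.01 and -2.90, against 0.00 and 0.07 over all genes. These comparisons share libraries with those between sites.

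Wnt7b was 6.43-fold higher in tumour cells than in stroma in the liver (2.69 ± 0.15 on the log2 scale, edgeR adjusted p = 9.11e-09) and 12.6-fold in the peritoneum (3.65 ± 0.26, adjusted p = 5.45e-06). Fzd6 was at 27.3 to 33.7 CPM in liver tumour cells against 6.46 to 9.47 CPM in liver stroma, and at 25.7 to 38.4 against 9.08 to 10.5 CPM in the peritoneum (1.87 ± 0.14 and 1.73 ± 0.15, adjusted p = 1.19e-07 and 1.21e-05). Fzd5 was 2.16-fold and 2.76-fold higher. Dkk2 was higher by 1.33 ± 0.28 in the liver (adjusted p = 0.000931) and by 0.83 ± 0.30 in the peritoneum (adjusted p = 0.0322), where the call was lost in 7 alternatives, RLE size factors and leaving out peritoneal tumour replicate 1, 2 or 3 among them. Wnt7b, Fzd5 and Fzd6 did not overlap between the sorted fractions at either site.

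Of the genes tested at both sites, 3 were called on the tumour side in the liver and not in the peritoneum. These were Fzd2 (2.01 ± 0.18, edgeR adjusted p = 6.61e-07), Fzd3 (1.10 ± 0.22, adjusted p = 0.000723) and Wnt5a (0.60 ± 0.16, adjusted p = 0.00464, but 0.0909 in the fit of all libraries). Fzd2 gave -0.12 ± 0.21 in the peritoneum (adjusted p = 0.625), Fzd3 0.13 ± 0.28 (adjusted p = 0.690) and Wnt5a 0.29 ± 0.22 (adjusted p = 0.260). The site difference of Fzd2 differed between stroma and tumour cells as given above, while those of Fzd3 (adjusted p = 0.0668) and Wnt5a (adjusted p = 0.428) were not called.

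Wnt7a and Wnt3 passed the filter on low counts at 1 site each. Wnt7a was tested in the peritoneum (4.08 ± 0.59, edgeR adjusted p = 0.000254), at 0.874, 1.17, 1.34 and 3.25 CPM in tumour cells and at most 0.149 CPM in stroma. In the liver it failed the filter, and without the filter it was also called higher in tumour cells (2.22 ± 0.61, adjusted p = 0.00544). Wnt3 was tested in the liver (1.69 ± 0.41, adjusted p = 0.00247), failed the filter in the peritoneum and was called there without it (2.40 ± 0.75, adjusted p = 0.0192). DESeq2 and the fit of all libraries called both genes at these sites too, so the call at 1 site follows from the filter.

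On the stromal side, Wnt4 had 0.844, 1.13, 0.9996 and 0.512 CPM in liver tumour cells and 21.2, 26.8, 29.4 and 22.5 CPM in liver stroma (-4.86 ± 0.21, edgeR adjusted p = 1.26e-09). In the peritoneum it had 2.78, 2.61, 0.864 and 1.14 CPM against 19.3, 37.6, 28.1 and 30.0 CPM (-3.90 ± 0.41, adjusted p = 4.07e-05). Dkk3 had 0.137 to 0.416 CPM in liver tumour cells (-5.62 ± 0.38, adjusted p = 6.42e-08) and 0.230 to 1.84 CPM in peritoneal tumour cells (-5.90 ± 0.58, adjusted p = 2.68e-05). Fzd8, a further stromal receptor, had at most 0.113 CPM in liver and 0.312 CPM in peritoneal tumour cells, against 2.90 to 5.05 and 7.76 to 10.9 CPM in stroma.

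Wnt9b was at 0 counts in liver tumour cells and at least 13.6-fold higher in liver stroma (edgeR adjusted p = 1.1e-05). Wnt2b had 1 count over the liver tumour cell libraries, a count ratio of 114 in favour of stroma with a 95% interval of 19.9 to 4539 for counting error only. Wnt2 and Wnt11 gave log2 fold changes of -2.02 ± 0.56 and -2.84 ± 0.37 in the liver and -4.80 ± 0.32 and -5.46 ± 0.32 in the peritoneum, all called. Wnt9a was lower in peritoneal tumour cells (-3.12 ± 0.22, adjusted p = 4.45e-06) and close to the stroma in the liver (0.13 ± 0.43, adjusted p = 0.799). Wnt16 and Wnt5b were called lower in peritoneal tumour cells, at -7.23 ± 1.13 and -2.09 ± 0.76, with 4 Wnt16 counts in those cells, all from mouse 1, and Wnt5b not called in 4 alternatives that leave out a library.

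The Sfrp genes were called lower in tumour cells at both sites, with -6.37 ± 0.55, -5.69 ± 0.65 and -4.08 ± 0.81 on the log2 scale for Sfrp1, Sfrp2 and Sfrp4 in the liver and -7.29 ± 0.76, -7.25 ± 1.32 and -7.03 ± 1.13 in the peritoneum. Fzd1 gave -0.64 ± 0.18 in the liver (edgeR adjusted p = 0.00759) and -2.85 ± 0.23 in the peritoneum (adjusted p = 1.04e-05), and Fzd4 gave -1.38 ± 0.21 and -2.90 ± 0.26. Fzd7, at 34.7 to 75.6 CPM over the 16 sorted libraries, was called at neither site. Porcn, the enzyme that attaches the lipid to Wnt proteins, was higher in tumour cells by 2.42 ± 0.10 in the liver and 3.04 ± 0.14 in the peritoneum.

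Calls in the lists around the family stand beside high shares over all genes. These were 38.4% higher in tumour cells and 39.4% lower in the liver, and 39.5% and 37.1% in the peritoneum. The medians over all genes were 0.00 and 0.07. Secretion and co-receptor genes had 14 called higher in tumour cells and 7 lower of 22 in the liver, and 7 and 12 of 22 in the peritoneum. Target genes had 7 higher and 8 lower of 16 in the liver and 5 and 10 of 16 in the peritoneum, with medians of -0.61 and -2.07. Intracellular genes had 10 higher and 7 lower of 23 in the liver and 10 and 6 of 23 in the peritoneum, with Ctnnb1 higher at both (1.31 ± 0.09 and 1.41 ± 0.08). Polarity genes had 8 higher and 6 lower of 14, and 5 and 8 of 14. Pericentral genes had 1 higher and 5 lower of 7, and 0 and 5 of 7. The TMM and RLE scalings placed the median of all genes in the peritoneum at 0.07 and -0.07, a shift of -0.14.

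A few genes that failed the filter on low counts differed between stromal sites by their values alone. Wnt10b had 1.68, 1.08, 1.07 and 0.349 CPM in peritoneal stroma and at most 0.105 CPM in liver stroma. Wnt6 had 0.224 to 1.39 CPM and 0.0397 to 0.184 CPM, and Fzd10 had 0.0693 to 0.543 CPM and 0. Without the filter, edgeR called these 3 and Sfrp5 lower in liver stroma, with log2 fold changes from -6.30 to -2.68. Some annotated neighbours overlap genes of the family on mm9: Gm16790 with Sfrp2, Fbxl14 with Wnt5b, Gm8398 with Wnt11, Gm2670 with Wnt5a and AU022754 with Wnt7b, and how shared reads were counted is not given in the sources used here. Sfrp2 lies at chr3:83570243-83578238, Sfrp4 at chr13:19714973-19724863, Sfrp1 at chr8:24521974-24560104, Wnt9a at chr11:59120430-59147054 and Wnt7b at chr15:85365869-85412251 (mm9, whole genes), and Wnt9b and Wnt3 are neighbours on chromosome 11.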

How the data were processed

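Poly(A) RNA libraries (NuGEN Universal Plus mRNAseq) were sequenced on a HiSeq 2500, and the authors aligned reads with TopHat2 to mm9 and deposited raw counts per gene; the submitters' processing notes also name FastQC, Bowtie 0.12.2, mm8 and mm10 without roles. The counting program, annotation and strand setting are not given in the sources used here. Counts were used as deposited.

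Groups came from the labels. Each pair of groups was fitted alone with edgeR 4.0.16 (TMM, filterByExpr with a minimum count of 10, quasi-likelihood F-test). P-values were adjusted by Benjamini-Hochberg over every gene in the fit, with calls at an adjusted p under 0.05. Levels are CPM with TMM factors over all 25 libraries, which ranged from 20818989 to 51241336 counts; ± is the SE of a log2 fold change or the SD of a level. Intervals and floors cover counting error only, and the floor was 3 counts per library. Exon lengths came from GENCODE vM1 on mm9. Alternatives used RLE factors, no filter, DESeq2 1.42.0, the study's thresholds, a joint fit, lane, a replicate block and leaving out each library. The scripts were tested on simulated data.

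In sorted cells the numbers name the mouse, so they pair the samples; same-numbered deviations correlated from -0.17 to 0.06 between tumour cells and from -0.01 to 0.39 between stromal sites. In cultured lines (-0.69 to 0.36) they did not pair, so the replicate block there grouped libraries by number alone and spent degrees of freedom without a known pairing. Named genes were all members called, and, of the gene lists, up to 4 genes with the smallest adjusted p in a comparison; Rspo3, Wnt10b, Wnt6 and Fzd10 were chosen after their values were seen. Members, gene lists and marker lists (fibroblast, stellate, endothelial, mesothelial, leukocyte, Kupffer, hepatocyte, and BMEL and epithelial cells) were chosen with earlier results of these data known. The gene lists overlap, and a shared gene is counted in each of its lists. The polarity list shares Ror1, Ror2, Ryk and Ptk7 with the secretion list. The target list shares genes with the secretion, intracellular and pericentral lists. Stellate markers summed to 55.5 to 77.3 CPM in liver and 57.3 to 77.9 CPM in peritoneal stroma, mesothelial markers to 80.0 to 181 and 114 to 148 CPM, and leukocyte markers to 5352 to 6439 and 4093 to 5432 CPM.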

Additional observations from a re-analysis of the deposited data

Results flagged for a closer look

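In groups of 4, a library was marked where its gap to the nearest of the others took a larger share of the range than Dixon's 95% limit, which chance reaches in about 1 of 20 groups. In peritoneal tumour cells, mouse 1 was marked for Sfrp1 (4.31 CPM, the others 0.516 to 0.960), Sfrp2 (16.2 CPM, the others 0.544 to 0.738), Sfrp4 (14.0 CPM, the others 0.679 to 1.88) and Fzd2, where it was the lowest (20.7 CPM, the others 32.7 to 34.4). The same library was marked for the sum of fibroblast markers (1523 CPM) and of leukocyte markers (194 CPM). Their part in the Sfrp values was not tested.

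Elsewhere, Fzd5 was high in liver tumour cells of mouse 1 (107 CPM, the others 86.5 to 86.8), Wnt7b in liver stroma of mouse 4 (21.5 CPM, the others 14.9 to 15.7), and the endothelial marker sum in peritoneal stroma of mouse 1 (759 CPM, the others 418 to 476). In all, 9 of 81 groups of values examined were marked.

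The site difference, liver against peritoneum, differed between stroma and tumour cells by the test of that difference (edgeR, adjusted p under 0.05) for 7 genes. On the log2 scale it was more negative in stroma by -3.29 for Wnt9a, -2.82 for Wnt2, -2.68 for Wnt11, -2.27 for Fzd1, -2.18 for Fzd2 and -1.58 for Fzd4, and more positive by 0.92 for Wnt7b.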

How the results depend on the processing

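No called gene changed direction under any alternative: of 1103 values over 77 gene and comparison pairs, 1017 stayed past the threshold and 86 did not. Called genes numbered 3 in RasLOW against BMEL WT, and 6 with DESeq2, 7 in the fit of all libraries, 1 with the replicate block and 0 in lane 4 alone, with 1 to 6 on leaving out a library. For RasHIGH against BMEL WT they numbered 8, 3 in lane 4 alone and 6 to 9 on leaving out a library. For RasHIGH against RasLOW they numbered 0, but 4 with DESeq2, 6 in the fit of all libraries and 3 under the study's thresholds, and 0 with the replicate block or without any library. For liver against peritoneal tumour cells they numbered 3, 1 with the mouse as replicate block, 7 under the study's thresholds, 0 without genes higher in stroma (by construction) and 0 to 5 on leaving out a library. The ranges on leaving out a library were 15 to 19 for stroma between sites, 20 to 21 and 17 to 20 for tumour cells against stroma in liver and peritoneum, and 6 to 9 for the difference between sites. The causes were not tested, and the replicate block changed no other count of called genes by over 1.5 times.

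Over all genes, calls numbered 734 for low Ras (1639 with DESeq2, 2440 in the fit of all libraries, 295 with the block, 0 in lane 4), 2789 for high Ras (316 in lane 4), 9 for high against low Ras (414 with DESeq2, 77 without the filter, 917 in the joint fit, 0 with the block) and 419 between tumour cells (1260 with DESeq2, 102 with the block, 195 with lane as a term). Under the study's thresholds, calls over all genes were not counted. DESeq2 gave no adjusted p for Sfrp2 between tumour cells and Sfrp1 between peritoneal tumour cells and stroma. Genes under about 0.1 CPM are at 3 counts or fewer, so their absence cannot be told from a low level.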
